A study of Mus musculus with 4 samples.

Results

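The cytosolic ribosomal protein genes encode the proteins of the ribosome outside mitochondria. They were taken by name, as symbols that begin with Rpl or Rps and a digit, together with Rplp0, Rplp1, Rplp2 and Rpsa. Pseudogene names, the Rps6k kinases and genes that are not protein-coding were left out. The rule caught 87 names, 1 of which (Rps4l) was dropped as not protein-coding, so that 86 of the 16739 genes with a value in any library were members. Of these, 52 carried an Rpl name, given to proteins of the large (60S) subunit, and 34 carried an Rps name, given to the small (40S) subunit. Standard ribosomal proteins made up 77 of the 86. A further 6 were paralogs (Rpl3l, Rpl7l1, Rpl22l1, Rpl36al, Rpl39l and Rps27l). The last 3 met the name rule without being standard subunits: Rps19bp1 encodes a protein that binds Rps19, Rps23rg1 is a retrogene of Rps23 and Rpl37rt is a retrotransposed copy of Rpl37.

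The RNA-seq libraries came from tumor-associated macrophages (TAMs), sorted as CD45+CD11b+F4/80+ cells out of B16-F10 melanomas grown under the skin of C57BL/6 mice. B16-F10 is a mouse melanoma line of the same strain. There were 2 WT libraries and 2 libraries labelled Trim24-deficient (genotype Trim24-/-), the latter from Trim24 flox/flox LysM-Cre mice. Mice were 6 to 8 weeks old when injected, and cells were sorted 16 days later. WT controls were littermates, and whether they carried floxed alleles or the Cre is not given in the sources used here. LysM-Cre is active across myeloid cells, including granulocytes, and not in macrophages alone.

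A ribosome is built from ribosomal RNA and a full set of ribosomal proteins, in a large subunit that joins amino acids and a small subunit that reads the mRNA. The mRNAs of ribosomal proteins are among the most abundant and shortest of a mammalian cell. Most of them begin with a cytosine followed by a run of pyrimidines, the 5′ terminal oligopyrimidine (TOP) tract, through which the kinase mTORC1 and the RNA-binding protein Larp1 adjust their translation and stability together.

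The TOP tract at the transcript start is the sequence feature that sets these mRNAs apart from most others, so the start of 6 members is shown. All 6 were taken from the 13 of 78 member windows with such a run at the annotated start. Each line holds 10 bases before and 20 bases from the annotated RefSeq start (assembly GRCm38.p6), read 5′ to 3′ along the gene, and capitals mark a C at the start with the C or T bases that follow it without a break. Rps6, Rpl35, Rpl14, Rps27 and Rplp2 are named below for their roles or values. Rpl15 was added because its run of 13 bases was the longest.
Rps6 (chr4:86857348-86857377, minus strand): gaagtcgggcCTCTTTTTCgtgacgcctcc
Rpl35 (chr2:39005112-39005141, minus strand): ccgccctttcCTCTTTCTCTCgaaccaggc
Rpl14 (chr9:120571507-120571536, plus strand): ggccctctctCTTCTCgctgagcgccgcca
Rps27 (chr3:90213629-90213658, minus strand): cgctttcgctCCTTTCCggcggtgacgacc
Rplp2 (chr7:141447641-141447670, plus strand): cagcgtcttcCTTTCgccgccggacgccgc
Rpl15 (chr14:18270967-18270996, minus strand): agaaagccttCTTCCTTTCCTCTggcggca

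RefSeq promoter windows (250 bases before to 50 after the start) were given for 66 of the 86 members, in 78 windows. A C at the annotated start with at least 4 C or T bases after it stood in 13 of the 78 member windows (16.7%) and in 823 of all 32851 windows (2.51%). The letters CTTTCC, searched on both strands (GGAAAG) and able to overlap such a run, were in 48.7% of member windows and 26.6% of all windows. The letters CCGGAAGT, searched on both strands (ACTTCCGG), were in 15.4% of member windows and 3.89% of all windows. These matches rest on annotated starts, which can lie some bases from the start that a cell uses.

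Expected counts summed to 4817292 (replicate 1) and 4476122 (replicate 2) for WT, and to 4917063 and 5172407 for replicates 1 and 2 of the Trim24-deficient-labelled libraries. Values are given below as CPM, counts relative to library size after scaling by edgeR's TMM method. Before that scaling, 3 counts stood at 0.58 to 0.67 CPM. Trim24 was at 5.86 and 2.08 CPM in WT and at 3.41 and 0.411 CPM in the Trim24-deficient-labelled libraries (log2 fold change −1.06, edgeR adjusted p = 0.635), so its level did not separate the labels. The gene-level count takes reads from every exon, floxed or not. The groups also differed in sex-linked transcripts: Xist, transcribed from the inactive X chromosome of females, was at 10.9 and 6.46 CPM in WT and 437 and 256 CPM in the Trim24-deficient-labelled libraries, and Ddx3y, on the Y chromosome, was at 73.7 and 102 CPM against 0.426 and 0.411 CPM. The study's methods describe the mice of its tumor models as matched for age and sex, and these transcripts differ from that. Genotype and sex cannot be told apart in any comparison below. Replicates differed by more than counting noise (chi-square per degree of freedom 8.57 between the WT libraries and 19.2 between the others). With 2 libraries a group the smallest exact two-sided permutation p is 0.333, and nothing in the labels says that they came from separate mice, so the p-values measure only the spread between these libraries.

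Ribosomal protein mRNAs were abundant in all 4 libraries. Per transcript length, on the FPKM scale (reads relative to transcript length and library size), the 77 standard members had a median level of 376 FPKM, against 9.86 FPKM over all genes tested, and 70 of the 77 lay between 100 and 1000 FPKM. Of the 100 genes with the highest mean FPKM, 12 were members, as were 66 of the top 500. The highest 60S members were Rpl41, Rpl13 and Rpl35, at 1047, 1004 and 860 FPKM on average, and Rps2 and Rps27, among the highest 40S members, were at 844 and 768 FPKM. Rpl41 encodes a very short peptide at the subunit interface, and Rps2 lies at the entry of the mRNA channel. At the low end stood Rps15a at 13.5 FPKM and Rpl22 at 23.0 FPKM. Rps15a was picked out here after its value was seen, and its FPKM was computed with a transcript length of 5158 bases, the longest of all members, whereas the median member length was 735.5 bases.

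Taken as a sum, the 86 genes made up 2.89% of counts in WT replicate 1 (95% Wilson interval 2.87 to 2.90) and 2.43% in WT replicate 2 (2.42 to 2.45). In the Trim24-deficient-labelled libraries the share was 2.20% (2.19 to 2.22) and 2.02% (2.01 to 2.03). These intervals cover counting error only. Both of the latter shares lay below both WT shares, and the ratio of the mean shares was −0.33 on the log2 scale. The gap between the WT replicates (0.456 percentage points) was larger than the gap between the lower WT library and the higher Trim24-deficient-labelled library (0.228 percentage points). On the TMM scale the order changed. Summed CPM was 28085 and 22677 in WT and 23080 and 21447 in the Trim24-deficient-labelled libraries, so WT replicate 2 lay between the latter, and the log2 ratio of the means was −0.19. The 2 subunits behaved alike, the 60S genes summing to 16605, 13394, 13631 and 12630 CPM and the 40S genes to 11480, 9283, 9449 and 8816 CPM in the same order of libraries. In bulk RNA, fewer cells of a type and less RNA per cell cannot be told apart.

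Gene by gene, 84 members passed edgeR's filter on low counts, and the other two, the paralogs Rpl3l (0, 0, 3 and 1 counts) and Rpl39l (0, 3, 4 and 1 counts), did not. By edgeR's quasi-likelihood test 0 members were called, a call needing both a fold change above 1.5 and an adjusted p below 0.05. Over all 11302 genes tested, 42 (0.372%) were called, 33 of them higher (0.292%) and 9 lower (0.0796%) in the Trim24-deficient-labelled libraries. At an unadjusted p below 0.05, 4 members were lower (4.76%, against 5.62% of all genes) and 0 were higher (0%, against 6.58%). DESeq2 called 1 member lower and 0 higher, against 0.212% and 1.17% of all genes.

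Small differences in 1 direction were common, however. The log2 fold change was below 0 for 71 of the 84 members (84.5%, against 50.6% of all genes), and the median over members was −0.21 (quartiles −0.30 and −0.07), against −0.006 over all genes. The spread among members was narrow, with an SD of 0.20, and 75 of the 84 lay between −0.4 and 0.2. The median was −0.21 for the 50 members with 60S names and −0.19 for the 34 with 40S names. Both Trim24-deficient-labelled libraries lay below both WT libraries for 29 members (34.5%, against 23.0% of all genes) and above both for 2 (2.38%, against 21.4%), which were Rpl7l1 and Rps19bp1. Single-gene standard errors ran from 0.18 to 0.33 on the log2 scale, so most of these differences were of the size of their own error, and 3 members lay beyond 1.5-fold in either direction before any test (3.57%, against 17.3% of all genes). Scaling by library totals without TMM moved the median of all genes to −0.15 and that of the members to −0.35, and 57 members (67.9%, against 35.6% of all genes) then lay below both WT libraries in both Trim24-deficient-labelled libraries.

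**Figure D1:**
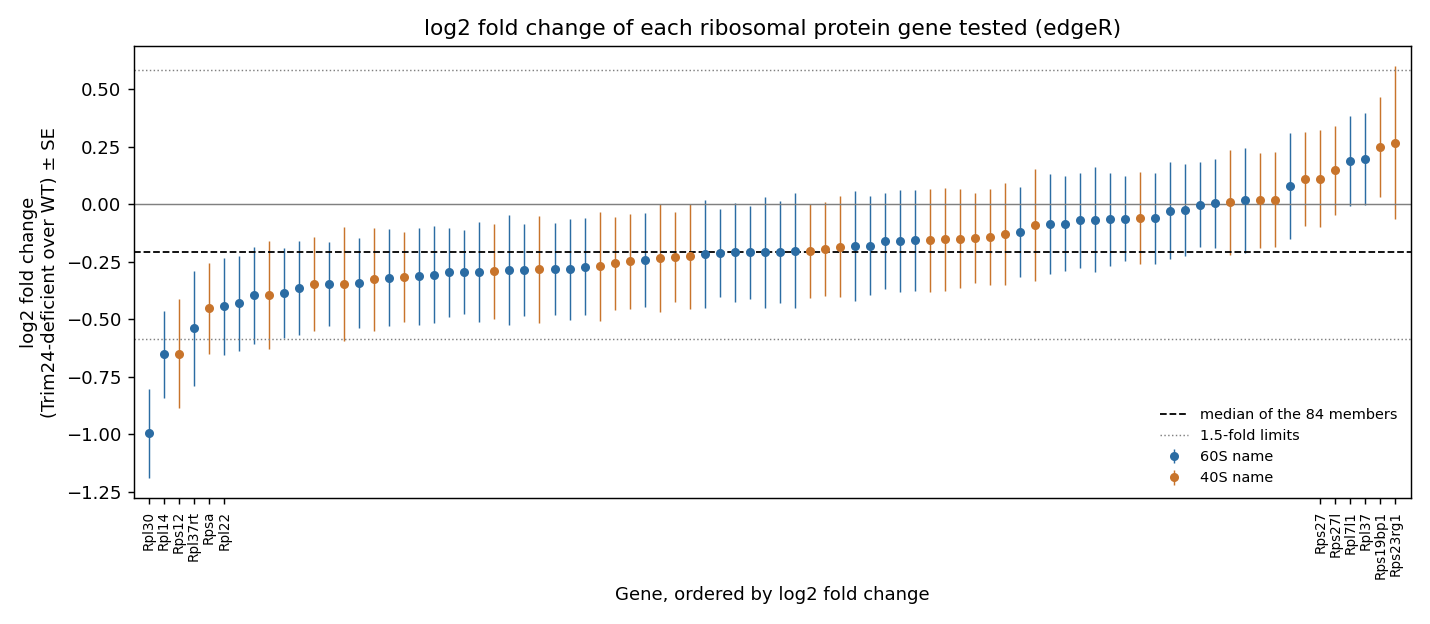
Log2 fold change (Trim24-deficient-labelled libraries over WT, y axis) with its standard error for each of the 84 ribosomal protein genes tested, ordered along the x axis and named at the 6 lowest and 6 highest, with 60S names in blue and 40S names in orange. The dashed line is the member median of −0.21, the dotted lines mark 1.5-fold, and Rpl30 at −1.0 stands below all other members.

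Much of this rested on WT replicate 1. In CPM, 83 of the 84 members were higher in WT replicate 1 than in WT replicate 2 (98.8%, against 48.9% of all genes), with Rpl30 the exception, and the median ratio between these libraries was 1.27-fold. WT replicate 1 was the highest of the 4 libraries for 75 members (89.3%, against 18.2% of all genes). The Trim24-deficient-labelled library replicate 2 was the lowest for 47 members (56.0%, against 28.8%), and its replicate 1 lay above it for 63 (75%, against 50.2%). The median log2 ratio of WT replicate 1 over the Trim24-deficient-labelled libraries was 0.29 and 0.46. For WT replicate 2 the same medians were −0.06 and 0.09. Without WT replicate 1, the median log2 fold change of the members was 0.009, beside 0.010 over all genes. Without WT replicate 2 it was −0.36, and it was −0.28 and −0.13 without replicates 1 and 2 of the Trim24-deficient-labelled libraries.

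**Figure D2:**
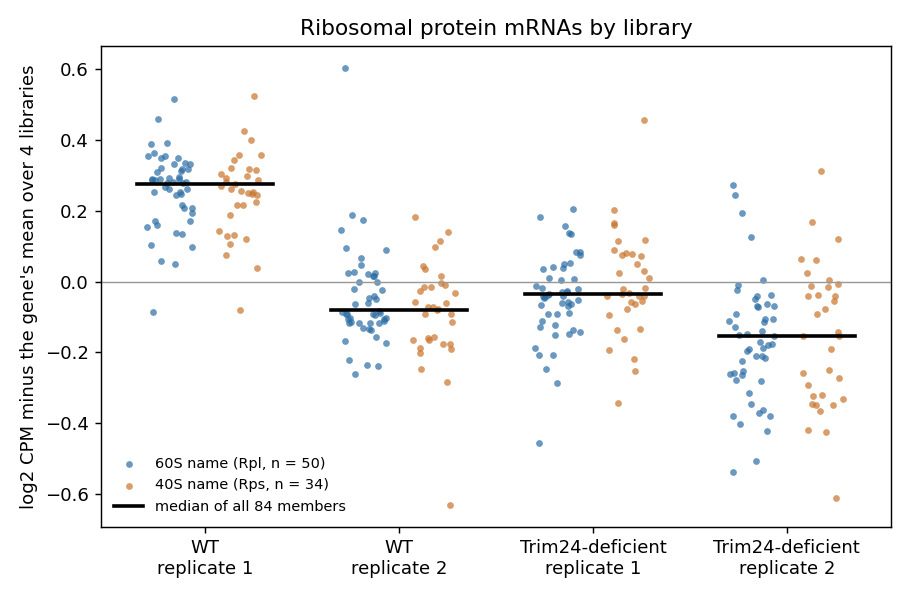
Each point is 1 of the 84 tested ribosomal protein genes in 1 library, as its log2 CPM minus the gene's mean over the 4 libraries (y axis), with 60S names in blue, 40S names in orange and a bar at the median. WT replicate 1 stands above the other 3 libraries for 75 of the 84 genes, whereas WT replicate 2 overlaps both Trim24-deficient-labelled libraries.

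The member furthest from the others was Rpl30 (gene 19946, chr15:34440505-34443276 on GRCm38, minus strand, 5 exons), whose protein lies in the 60S subunit. It was at 71.1 and 82.5 CPM in WT and at 39.6 and 37.4 CPM in the Trim24-deficient-labelled libraries, 76.8 ± 8.08 against 38.5 ± 1.57 (SD, n = 2 each). The groups did not overlap, and both pairs of replicates lay close together. The log2 fold change was −1.0 (SE 0.19), with an adjusted p of 0.0786 by edgeR and 0.0333 by DESeq2. By edgeR the adjusted p was 0.00894 and 0.00866 without replicate 1 or 2 of the Trim24-deficient-labelled libraries, but 0.136 and 0.634 without WT replicate 1 or 2. With the replicate number as a block it was 0.000377 by edgeR. Its call thus turned on the test and on the libraries used. It was the only member not higher in WT replicate 1 than in WT replicate 2, and its log2 fold change without the former was −1.08. The counts of Rpl30 were fractional in every library, as RSEM gives for reads that match more than 1 gene.

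Rpl14 (gene 67115, chr9:120571517-120574653, plus strand), another protein of the 60S subunit, whose start is shown above, was at 149 and 124 CPM in WT and 91.4 and 82.0 CPM in the Trim24-deficient-labelled libraries. The groups did not overlap, with a log2 fold change of −0.65 (SE 0.19) and an edgeR adjusted p of 0.217. RSEM also gave fractional counts to Rpl14 and to its pseudogene entry Rpl14-ps1, which held 828, 545, 571 and 417 counts. Added together, the Rpl14 entries had a log2 ratio of −0.54.

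Rps12 (gene 20042, chr10:23785183-23787383, minus strand), a 40S protein, was at 106 and 81.7 CPM in WT and 71.4 and 48.5 CPM in the Trim24-deficient-labelled libraries. Its log2 fold change was −0.65 (SE 0.24, edgeR adjusted p = 0.310), and the replicates of each group lay further apart than the gap between the groups. Without replicate 1 of the Trim24-deficient-labelled libraries it was −0.95 with an adjusted p of 0.0147 by edgeR, and without the other replicate −0.40. Without WT replicate 1 it was −0.43. Rpsa (gene 16785, chr9:120127766-120132369, plus strand), a 40S protein also known as the laminin receptor, was at 633 and 595 CPM against 459 and 439 CPM. That was a log2 fold change of −0.45 (SE 0.20, edgeR adjusted p = 0.407), and −0.39 without WT replicate 1. Rpl14, Rps12 and Rpsa kept both Trim24-deficient-labelled libraries below both WT libraries.

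Rpl22 and Rpl37rt completed the 6 members with the lowest fold changes. Rpl22 encodes an RNA-binding 60S protein that is known from T cell development. It was at 65.0 and 51.3 CPM in WT and 45.6 and 39.9 CPM in the Trim24-deficient-labelled libraries (log2 fold change −0.44, SE 0.21, edgeR adjusted p = 0.424), with no overlap between the groups, and −0.25 without WT replicate 1. Rpl37rt was at 57.1 and 40.6 CPM against 39.2 and 28.2 CPM (log2 fold change −0.54), and the lower WT library was nearly level with the higher of the other group. Its log2 fold change was −0.26 without WT replicate 1 and −0.32 without replicate 2 of the Trim24-deficient-labelled libraries. Its parent Rpl37 had a log2 fold change of 0.20, from 72.1 and 57.7 CPM to 69.7 and 79.1 CPM, so its groups overlapped. Both had fractional counts, and the sum of both entries had a log2 ratio of −0.07, so the opposite signs of the pair could not be separated from how reads were shared out between them.

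The members with the highest fold changes were Rps23rg1 at 0.27, Rps19bp1 at 0.25, Rpl37 at 0.20, Rpl7l1 at 0.19, Rps27l at 0.15 and Rps27 at 0.11 on the log2 scale. Only Rpl37 and Rps27 among these 6 are standard proteins of the ribosome. Rps19bp1, which is not a subunit, was at 32.1 and 30.4 CPM in WT and 32.2 and 42.1 CPM in the Trim24-deficient-labelled libraries. Rpl7l1, a paralog whose protein acts in the assembly of the large subunit, was at 180 and 179 CPM against 182 and 226 CPM. In both, 1 library (replicate 2 labelled Trim24-deficient) stood above 3 that were nearly level, and without it the log2 fold changes were 0.04 and 0.02. Rps23rg1 ranged from 16.3 to 34.5 CPM with overlapping groups, and its log2 fold change ran from −0.13 to 0.83 as single libraries were left out. Adjusted p-values of these 6 were 0.680 to 0.870 by edgeR.

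These abundant members lay on both sides of the member median. Rpl41 was at 546 and 382 CPM in WT and 451 and 434 CPM in the Trim24-deficient-labelled libraries (log2 fold change −0.07), a WT gap that enclosed both of the others. Rpl13 was at 938 and 782 CPM against 720 and 658 CPM (log2 fold change −0.32, SE 0.21), without overlap, and at −0.17 without WT replicate 1. Rpl35, at 390 and 324 against 314 and 439 CPM, had a log2 fold change of 0.08. Rps2 was at 1077 and 812 CPM against 794 and 642 CPM, a log2 fold change of −0.40 (SE 0.23) that was −0.16 without WT replicate 1. Rps27 had a log2 fold change of 0.11. With library totals in place of TMM, Rpl35 and Rps27 were at −0.07 and −0.03.

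The P stalk is the arm of the large subunit that recruits the GTPases of translation, made of Rplp0 with copies of Rplp1 and Rplp2. Rplp0 was at 1025 and 798 CPM in WT and 848 and 786 CPM in the Trim24-deficient-labelled libraries (log2 fold change −0.16). Rplp1 was at 280 and 197 against 223 and 226 CPM (−0.09), and Rplp2 at 106 and 88.3 against 91.8 and 94.1 CPM (−0.06). In all 3 the WT replicates spanned at least 1 of the other libraries, and without WT replicate 1 the log2 fold changes were 0.05, 0.21 and 0.09. With its pseudogene entry added, Rplp2 had a log2 ratio of −0.17.

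Rpl5 and Rpl11 bind 5S rRNA and, when free, the ubiquitin ligase Mdm2, through which they stabilise p53. Rpl5 was at 475 and 472 CPM in WT and 375 and 395 CPM in the Trim24-deficient-labelled libraries, with nearly identical WT replicates and a log2 fold change of −0.30 (SE 0.19). It ran from −0.33 to −0.25 as each library was left out. Rpl11 was at 285 and 234 against 225 and 202 CPM (log2 fold change −0.28, SE 0.20), and at −0.12 without WT replicate 1. Neither passed the test (edgeR adjusted p = 0.569 and 0.599).

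Rps27a, made as a fusion with ubiquitin, was at 376 and 287 CPM in WT and 296 and 234 CPM in the Trim24-deficient-labelled libraries (log2 fold change −0.33, overlapping groups). It was at −0.10 without WT replicate 1 and −0.16 without replicate 2 of the latter. Of the 5 proteins listed for roles outside the ribosome (Rpl13a, Rps3, Rpsa, Rpl22 and Rps6), 1 (Rpsa) was at an unadjusted p below 0.05 and 0 were called. Rpl13a, a part of the complex that silences inflammatory mRNAs in interferon-treated monocytes, was at 477 and 392 against 380 and 319 CPM (log2 fold change −0.31, SE 0.21, no overlap). Rps6, the substrate of the S6 kinases whose start is shown above, was at 615 and 465 against 497 and 453 CPM (−0.19, overlapping groups). Rps3, which also takes part in DNA repair and binds NF-κB, was at 654 and 533 against 540 and 533 CPM (−0.14). Without WT replicate 1, Rpl13a was at −0.15, Rps6 at 0.05 and Rps3 at 0.03.

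Paralogs were compared with the proteins they are named after as FPKM ratios within each library, which do not depend on the scaling between libraries. Rpl22l1 exceeded Rpl22 in every library, by 3.15-fold and 3.76-fold in WT and 3.52-fold and 3.33-fold in the Trim24-deficient-labelled libraries, so the groups overlapped. Both genes lay below both WT libraries in each of the latter, Rpl22l1 itself being at 41.6 and 39.2 CPM against 32.6 and 27.3 CPM (log2 fold change −0.43, SE 0.21). Rps27l, a target of p53, stood at 0.553 and 0.605 of the level of Rps27 in WT and 0.535 and 0.654 in the other libraries. Rpl36al stood at 1.52 and 1.99 times Rpl36a against 1.72 and 2.35 times, and Rpl7l1 at 0.172 and 0.204 of Rpl7 against 0.185 and 0.250. The groups overlapped in each of these pairs. They did not overlap for the copies. Rpl37rt over Rpl37 stood at 1.03 and 0.911 in WT against 0.729 and 0.461, and Rps23rg1 at 0.0322 and 0.0238 of Rps23 in WT against 0.0452 and 0.0424. Both copies had fractional counts, as for Rpl37 above. As a group, the 4 paralogs tested had a median log2 fold change of 0.07 and Rpl36al itself of −0.002.

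Since the groups differ in X-linked and Y-linked transcripts, the 4 members on chromosome X were read apart. Rps4x was at 390 and 349 CPM in WT and 319 and 262 CPM in the Trim24-deficient-labelled libraries (log2 fold change −0.35), with no overlap, and at −0.21 without replicate 2 of the latter. Rpl10, at 718 and 566 against 610 and 443 CPM, had a log2 fold change of −0.29, and its groups overlapped. It was at −0.09 without WT replicate 1 and −0.07 without replicate 2 of the Trim24-deficient-labelled libraries. Rpl36a was at 117 and 83.1 against 102 and 70.7 CPM (−0.21) and Rpl39 at 105 and 76.7 against 95.8 and 62.1 CPM (−0.20), both with overlap. Their median was −0.25, beside −0.21 for the 80 autosomal members and −0.07 for the 352 other X-linked genes tested. Without WT replicate 1, Rpl36a and Rpl39 were at 0.07 and 0.06.

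Members have short transcripts, and in these libraries the fold change varied with length. The length in the deposited tables was under 1000 bases for 64 of the 86 members, against 10.6% of all genes. Across the 11218 other genes tested, length and log2 fold change had a Spearman's rho of −0.26, a description across genes that are not independent. Other genes under 1000 bases (788 tested) had a median log2 fold change of 0.14, and those over 4000 bases −0.15. The 63 tested members under 1000 bases had a median of −0.20, with TMM the opposite sign from other genes of their length. By class, the members stood at −0.11 under 500 bases, −0.23 from 500 to 1000 bases and −0.20 from 1000 to 2000 bases, beside 0.12, 0.14 and 0.09 for other genes. The sign of the other genes under 1000 bases depended on the scaling. Their median was −0.007 with library totals and −0.04 with limma on log2(FPKM + 1). In both settings all tested members had a median of −0.35.

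With the trend on length taken out of each library, fitted without the members, the member median was −0.33, beside 0.008 over all genes. Both Trim24-deficient-labelled libraries were then below both WT libraries for 66 members (78.6%, against 21.2% of all genes), 13 members were at an unadjusted p below 0.05 and lower (15.5%, against 4.88%), and 0 were called (of all genes, 0.0619% were called lower and 0.23% higher).

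**Figure D3:**
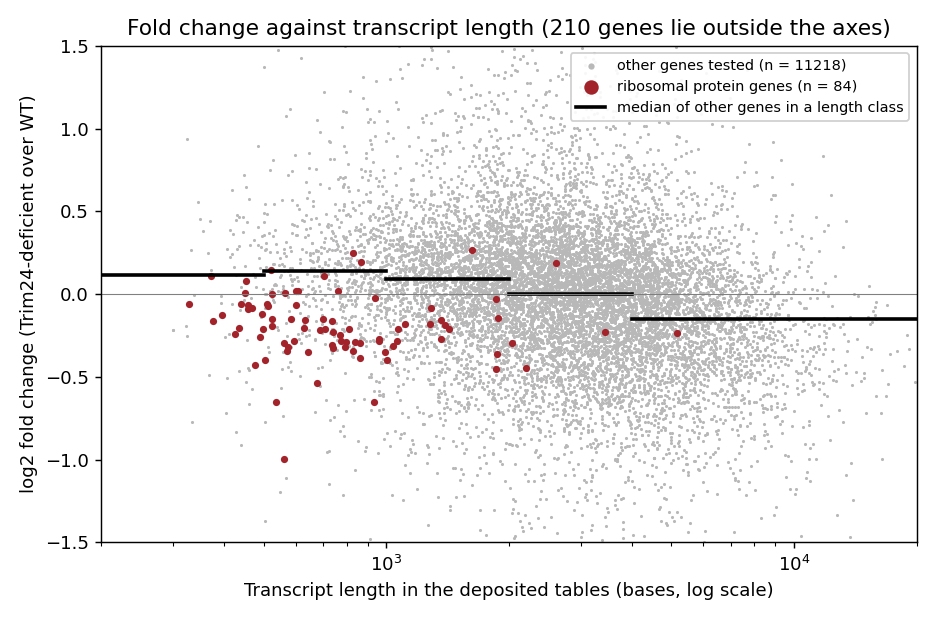
Log2 fold change (y axis) against transcript length in bases (x axis, log scale) for 84 ribosomal protein genes in red and 11218 other genes in grey, with black bars at the median of the other genes in each length class. Red points under 1000 bases have a median of −0.20 where other genes have 0.14 (−0.007 with library totals in place of TMM). Outside the axes lie 210 other genes.

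The other genes of protein synthesis were read from lists of known members. Fau and Rack1 are ribosomal proteins whose names fall outside the rule. Fau was at 495 and 381 CPM in WT and 476 and 389 CPM in the Trim24-deficient-labelled libraries (log2 fold change −0.02). Rack1, at 436 and 392 against 336 and 410 CPM, had −0.15. The groups overlapped for both genes.

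Of 16 TOP mRNAs that encode other proteins, such as elongation factors, 14 had a log2 fold change below 0, with a median of −0.12, and 0 were called or at an unadjusted p below 0.05 by edgeR. The lowest were Npm1, a nucleolar chaperone of ribosome assembly, at −0.46 (372 and 298 CPM against 275 and 214 CPM) and the histone chaperone Nap1l1 at −0.37. As for the members, the median of these mRNAs was near 0 (−0.02) without WT replicate 1. The 32 initiation factors had a median of −0.03, with 19 below 0, and 0 were called or at an unadjusted p below 0.05.

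Of 48 genes for ribosome assembly and RNA polymerase I, which makes the large rRNA precursor, 25 were below 0 (median −0.03), 4 were at an unadjusted p below 0.05 and 0 were called. Gnl3 (nucleostemin, a nucleolar GTPase) was at 116 and 106 CPM in WT and 70.1 and 64.1 CPM in the Trim24-deficient-labelled libraries (log2 fold change −0.73, SE 0.18, edgeR adjusted p = 0.167). Polr1b, a core subunit of RNA polymerase I, was at 37.6 and 45.0 against 27.1 and 30.4 CPM (−0.52, adjusted p = 0.360 by edgeR). In the other direction were Nle1 at 0.62 and Noc4l at 0.52, with adjusted p-values of 0.422 and 0.371 by edgeR. The other 2 at an unadjusted p below 0.05 were Noc4l and Ncl (nucleolin), the latter named for that count and at 429 and 433 against 308 and 308 CPM (−0.49). None of these 5 genes, named for their values in these same libraries, had overlapping groups. In the list of 48, 17 genes were lower and 7 higher in both Trim24-deficient-labelled libraries than in both WT libraries. Over all genes the shares were 23.0% and 21.4%.

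Among 16 genes of mTORC1, Larp1 and Myc, which act on ribosomal protein mRNAs or their genes, 10 were below 0 (median −0.17), 1 was at an unadjusted p below 0.05 and 0 were called. That 1 was Larp1, at 97.9 and 129 CPM in WT and 76.7 and 75.6 CPM in the Trim24-deficient-labelled libraries (log2 fold change −0.58, SE 0.20, edgeR adjusted p = 0.283). Eif4ebp1 and Eif4ebp2, repressors of cap-dependent translation that mTORC1 switches off, were at 0.42 and −1.08, the latter on 1.23 to 7.5 CPM. The list of 16 was not split into activators and repressors. Its median transcript length was 2861 bases, and with the length trend removed its median log2 fold change was −0.07.

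Mitochondrial ribosomal proteins and the nuclear genes of oxidative phosphorylation also have short transcripts, with median lengths of 1055 and 687.5 bases, and stood on the other side of the all-gene median. Of 78 mitochondrial ribosomal protein genes, 16 were below 0, with a median of 0.16, which was 0.008 with library totals and −0.0005 with limma on log2(FPKM + 1), where all genes stood at −0.15 and −0.13. Their extremes included Mrps31 at −0.52 and Mrps6 at 0.48. Of 80 oxidative phosphorylation genes tested, 6 were below 0, with a median of 0.23, among them Atp5g3 at −0.34 and Uqcrc1 at 0.49. That median was 0.085 with library totals, where 28 of the 80 were below 0, and 0.084 with limma, where 26 of 82 were. Leaving out single libraries kept both medians above 0 (0.03 to 0.28 and 0.12 to 0.34), whereas that of the cytosolic members ran from −0.36 to 0.009. With the length trend removed the medians were 0.06 and 0.08. With all 4 libraries, 0 genes in both lists were called or at an unadjusted p below 0.05 by edgeR. DESeq2 called 0 genes in these lists and in those of TOP mRNAs, initiation, ribosome assembly and mTORC1.

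**Figure D4:**
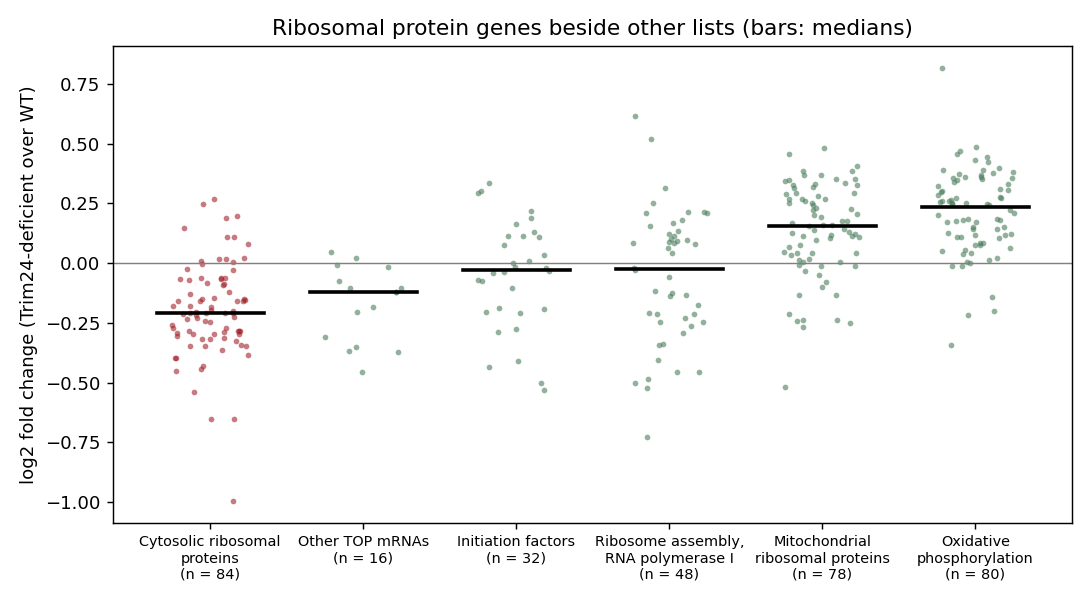
Log2 fold change (Trim24-deficient-labelled libraries over WT, y axis) of each tested gene in 6 lists, with bars at the medians. The 84 cytosolic ribosomal protein genes have the lowest median (−0.21) of the lists shown, and mitochondrial ribosomal proteins (0.16, but −0.0005 with limma on FPKM) and oxidative phosphorylation genes (0.23) lie above 0.

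**Figure D5:**
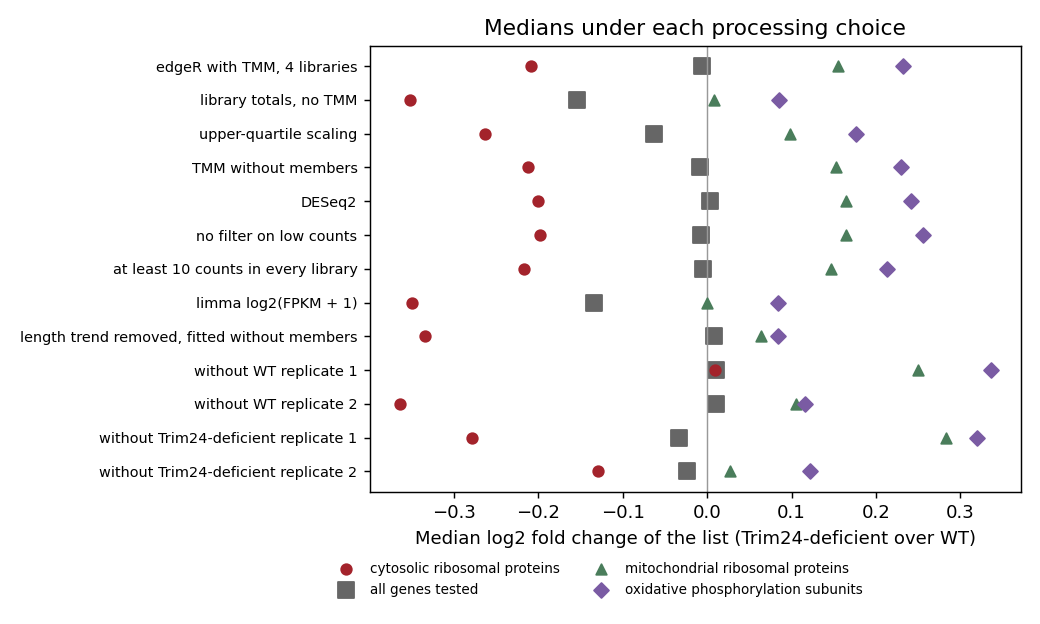
Median log2 fold change (x axis) of 3 gene lists and of all genes tested under each processing choice (y axis). The circle for cytosolic ribosomal proteins lies left of 0 and of the square for all genes in each line shown except without WT replicate 1, where both medians are near 0.01 and the symbols overlap.

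The sorted cells carried macrophage transcripts, and the summed levels of monocyte, neutrophil and dendritic cell markers did not overlap between the groups. Over all genes tested, 23.0% were lower and 21.4% were higher in both Trim24-deficient-labelled libraries than in both WT libraries. All 9 macrophage markers listed (among them Csf1r, Adgre1 and C1qa) were tested and 0 were called or at an unadjusted p below 0.05, and their summed level was 21696 and 21631 CPM in WT and 20204 and 26143 CPM in the Trim24-deficient-labelled libraries. All 6 monocyte markers had a log2 fold change above 0, with 5 at an unadjusted p below 0.05. Together they summed to 568 and 732 CPM against 1765 and 1212 CPM. Neutrophil markers summed to 181 and 213 CPM against 275 and 421 CPM. Of the 5 neutrophil markers tested, 4 were above 0, with log2 fold changes from −0.30 (Cxcr2) to 2.21 (S100a8). The summed level of dendritic cell markers was 145 and 117 against 166 and 192 CPM. Of the 7 tested, Flt3 (log2 fold change −2.61) and Cd209a (−1.23) were lower in both Trim24-deficient-labelled libraries than in both WT libraries. The other tested ones were above 0, but of these Batf3 alone had no overlap (22.8 and 14.2 against 24.7 and 27.1 CPM). The groups overlapped for Ccr7, Xcr1, Clec9a and Clec10a, the last being the most abundant (72.9 and 53.3 against 61.3 and 127 CPM). T and NK cell markers stood at 302 CPM in replicate 1 of the Trim24-deficient-labelled libraries and between 91.2 and 132 CPM in the other 3, and B cell markers between 46.5 and 55.7 CPM in all 4. Melanoma markers were present at 813 and 773 CPM in WT and 611 and 804 CPM in the others. Although these sums overlapped, 6 of the 7 melanoma markers had a log2 fold change below 0 (50.6% of all genes did). Tyr, the most abundant of them, was at 0.06. The median of the 7 was −0.46, and 4 were lower in both Trim24-deficient-labelled libraries than in both WT libraries (23.0% of all genes were). By edgeR 0 were called, and 1 (Tyrp1) was at an unadjusted p below 0.05. The part of these cells in the levels of ribosomal protein mRNAs was not tested.

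Among the members, mean log2 CPM and log2 fold change had a Spearman's rho of 0.07, a description over 84 genes of the same 4 libraries. By start sequence, the 13 tested members with a C start and pyrimidine run had a median log2 fold change of −0.13, the 51 with a window but no such run −0.21, and the 20 with no window −0.25. Adding the pseudogene entries to Rps15a moved its log2 ratio from −0.23 to −0.16, adding Rps23rg1 to Rps23 from −0.35 to −0.29, and adding Rps4l to Rps4x left it at −0.35. Counts of 60 of the 86 members were whole in every library within 0.005, and those of the other 26 were fractional in at least 1 library, as RSEM gives for reads that match more than 1 gene.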

How the data were processed

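RNA-seq libraries of sorted TAMs (2 labelled WT, 2 labelled Trim24-deficient) were grouped by their genotype labels. Bowtie mapping to GRCm38/mm10 and RSEM quantification were run by the authors (versions not given in the sources used here), who deposited an expected count per gene for each library, not normalized. The deposited tables also hold FPKM, which the authors scaled by transcript length and library total, and the transcript length in bases. Of 16739 genes, 16698 matched a symbol. The members and lists were chosen with earlier results of these data known.

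Expected counts were rounded to whole numbers (77.1% were whole). edgeR 4.0.16 in R 4.3.3 applied filterByExpr (11302 genes left) and TMM scaling (factors 1.03, 1.08, 0.957 and 0.943), after which glmQLFit and glmQLFTest compared the genotype labels over all genes, with Benjamini-Hochberg adjustment. Calls needed a fold change above 1.5 and an adjusted p below 0.05. Standard errors are the log2 fold change divided by the square root of F.

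Named genes were the members with the 6 highest and 6 lowest fold changes, the 3 highest of each subunit by FPKM, those on chromosome X, role and paralog lists and members under the filter, with at most 2 from each end of the other lists. Some genes that this rule or a list names are not reported here. Sequences and motifs came from RefSeq windows (GRCm38.p6). Other settings were a block on the replicate number, DESeq2 1.42.0, library totals, upper-quartile scaling, TMM without the members, no filter, at least 10 counts in every library, limma 3.58.1 on log2-transformed FPKM (pseudocount 1 or 0.1, genes reaching FPKM 1 in 2 or more libraries, or all genes), removal of a trend on length (lowess, span 0.3) and each library left out in turn. Counts of members below both WT libraries and sums with pseudogene entries were added after seeing the data. On simulated data for this comparison (200 of 11302 genes changed 4-fold), edgeR recovered 92% with 10 false calls among 11127 genes tested, and called 0 genes when none was changed. Genes were simulated independently, without a shift shared by many genes of a library. The 92% does not cover changes as small as the member median of −0.21.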

Additional observations from a re-analysis of the deposited data

How the results depend on the processing

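Library totals were 4476122 to 5172407 counts, at which levels under 0.58 to 0.67 CPM rest on fewer than 3 counts. With all 4 libraries, the member median kept its sign under every scaling, filter and test, from −0.35 with library totals to −0.20 without the low-count filter. Leaving out single libraries took it from −0.36 to 0.0092 (the latter without WT replicate 1), the log2 ratio of the summed share from −0.45 to −0.20, the members called lower from 0 to 2, those with both Trim24-deficient-labelled libraries above both WT libraries from 1 to 26, those below from 27 to 76, and all genes called from 25 to 652. These fits leave 1 library in a group, which is taken to vary like the others. Fewer libraries then have to be separated, so more genes can lie wholly above or below the other group. For the member counts above and below, no share over all genes is given for these fits. The calls over all genes cover both directions. These member counts therefore cannot be told from the background of all genes. The cause of these shifts was not tested.

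Libraries of the same replicate number share only that number as far as the labels go (the correlation of their deviations was 0.165 over 2 pairs). With the replicate block, 634 genes were called (1.85% of all genes lower and 3.76% higher). Of the members, 3 (3.57%) were called lower (Rpl30, Rps12 and Rpl14, adjusted p = 0.000377, 0.0394 and 0.0412 by edgeR) and 0 higher. DESeq2 called 156 genes and 1 member (Rpl30). limma called 23 genes with a pseudocount of 1, 20 with 0.1, and 0 without a filter on low values, where 1636 genes had an unadjusted p below 0.05, and it called 0 members in each. No call was added by dropping the fold limit. On summed CPM the share ratio was −0.19.

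Members above both WT libraries numbered 0 with library totals, upper-quartile scaling, limma with either pseudocount and either length correction, and 1 with TMM without members, with at least 10 counts in every library and with limma without a filter. Members below both numbered 57 with library totals (67.9%, against 35.6% of all genes). With the length trend fitted without the members they numbered 66 (78.6%, against 21.2%). They numbered 57 with each limma fit and 60 with the trend fitted on all genes. For these fits, and for the counts above both, no share over all genes is given to set them against. With limma on log2(FPKM + 1) the median of all genes was itself −0.13.

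Single genes near 0 changed sign. With library totals Rps27 and Rpl35 were at −0.034 and −0.069. With limma and either pseudocount, and with a pseudocount of 1 without the filter, they were at −0.027 and −0.083. With the length trend fitted without the members they were at −0.047 and −0.094, and Rps27l at −0.0067. With that trend fitted on all genes Rpl35 was at −0.033. Rpl36al was at 0.0066 with DESeq2 and 0.0063 without a filter. As single libraries were left out, Rps23rg1 ran from −0.13 to 0.83, Rps27 from −0.065 to 0.33, Rpl41 from −0.30 to 0.23, Rpl35 from −0.18 to 0.30, Rpl36a from −0.49 to 0.070, Rpl39 from −0.55 to 0.078, Rplp0 from −0.33 to 0.050, Rplp1 from −0.32 to 0.21, Rplp2 from −0.19 to 0.090, Rps3 from −0.28 to 0.027, Rps6 from −0.37 to 0.046, Rpl36al from −0.050 to 0.063, Rps15a from −0.55 to 0.031 and Fau from −0.19 to 0.20.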

Other observations

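Outside the lists, the 3 tested genes whose log2 CPM over the 4 libraries lay closest to the mean of the members, after centring, were Lrsam1, Picalm and Snx9, with root-mean-square distances of 0.0113, 0.0131 and 0.0173. Picalm, a clathrin assembly protein, was at 213 and 174 CPM in WT and 177 and 164 CPM in the Trim24-deficient-labelled libraries, and Snx9, a sorting nexin of endocytosis, was at 31.9 and 26.0 against 26.6 and 23.6 CPM. Lrsam1, a ubiquitin ligase, was at 15.4 and 12.1 against 12.6 and 11.3 CPM. None of the 3 was called (edgeR adjusted p = 0.751 to 0.828), and with 4 libraries many of the 11302 genes tested can come close to a given pattern.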
